A study of Mus musculus with 4 samples.

Results

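The 30 genes described here encode the ephrins, their Eph receptors, the netrins Ntn1 and Ntn4, and the netrin receptors. They were taken by gene symbol from a deposited table of 56748 genes, and each symbol matched 1 row. They comprise 8 ephrin genes, 14 Eph receptor genes, 2 netrin genes and 6 netrin receptor genes. The table came from RNA sequencing of BALB/cJ lungs that carried metastases of 4T1, a mouse triple-negative breast cancer (TNBC) cell line. Both groups were female mice injected in the tail vein with luciferase-expressing 4T1-FLuc cells at 7 weeks of age. The control group received saline (2 libraries; the sample labels call it a PBS control). The treated group received cmLumiOpto/PARPi for 3 weeks (2 libraries). cmLumiOpto is a gene therapy carried by an exosome-associated virus with an antibody to CD276, and it makes a light-driven mitochondrial channel that is switched on by the luciferase substrate ViviRen. PARPi was the PARP inhibitor olaparib at 50 mg/kg body weight. No library had either agent alone, so their parts in any difference cannot be told apart.

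Ephrins are ligands held on the cell surface, A-type by a lipid anchor and B-type by a transmembrane segment. Eph receptors are receptor tyrosine kinases on the neighbouring cell, so contact sends a forward signal through the receptor and a reverse signal through the ephrin. The system sorts cells, sets tissue boundaries and separates arteries from veins, and in breast cancer it acts in cell adhesion and invasion. Netrins are secreted relatives of laminin that steer axons and vessels through DCC, neogenin (Neo1) and the UNC5 receptors, of which several are dependence receptors that promote cell death when no ligand is bound.

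Totals were 15263375 to 16755228 counts per library, so 3 counts, taken as the floor of detection, were worth 0.173 to 0.204 CPM (counts scaled to the library total, with TMM normalization). The floor covers counting error only. The epithelial markers Epcam, Krt8 and Krt18 were abundant in every library. The summed CPM of 11 markers listed for mammary tumour epithelium was 3029 and 3403 with saline and 2745 and 3883 with cmLumiOpto/PARPi. Krt8 and Krt18 gave most of this sum. It cannot separate tumour from normal lung epithelium and is no measure of tumour content. The labels describe harvested tumour cells, but the libraries also held RNA of normal lung. The sum of 7 alveolar type 2 markers was 1665 and 443 with saline against 8072 and 2880 after treatment, and the sum of 7 alveolar type 1 markers was 312 and 132 against 878 and 431. The sum of 8 fibroblast markers was lower after treatment (5170 and 3584 against 1703 and 1896). Of these 8, 7 were lower and 1 was higher in both treated libraries. Of the 7 alveolar type 2 markers, 6 were higher and 1 was lower in both. Over all tested genes, 27.8% were lower and 27.4% higher without overlap. The sums for club cells, ciliated cells and B cells were higher in both treated libraries. The macrophage sum was lower in both, but 3 of its 6 markers had a positive log2 fold change and 3 a negative one. Sums for endothelium, lymphatic endothelium, smooth muscle and pericytes, neutrophils, T cells and cardiac muscle overlapped between groups. In bulk RNA, fewer cells of a type and less RNA per cell cannot be told apart. Nothing in the labels states separate litters or cultures, so p-values measure the spread between these libraries.

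Of the 30 genes, 21 had enough counts to be tested, and none of them passed only through 1 group. Among the 21, 0 had an adjusted p under 0.05 by the quasi-likelihood test of edgeR (Benjamini-Hochberg), where 0% of all 15167 tested genes passed (3221 of them, 21.2%, had an unadjusted p under 0.05). DESeq2 called 1 of them, Neo1, where 6.67% of all tested genes passed. Without the filter on low counts 5 were called (7.86% of all genes). With the replicate number as a block 4 were called, all lower (12.0% of all genes, 4.96% higher and 7.05% lower). With the block and a gene length correction together 0 were called (3.40% of all genes), and 0 were called with any 1 library left out (at most 0.0132% of all genes, and 0.00659% without treated replicate 1). At an unadjusted p under 0.05 in edgeR, 6 of the 21 were lower after cmLumiOpto/PARPi (28.6%, against 12.0% of all tested genes) and 1 was higher (4.76%, against 9.21%). The 6 were Neo1, Efna5, Epha2, Unc5b, Ephb4 and Efnb1, and the 1 was Ntn4. Groups did not overlap in 10 of the 21 (47.6%, against 55.2% of all tested genes). Of these, 7 were lower and 3 higher, where 27.8% and 27.4% of all tested genes were. The median log2 fold change of the 21 was -0.25, against 0.02 over all tested genes. The plot of levels by library shows these values, with the 4 libraries of each gene side by side.

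**Figure D1:**
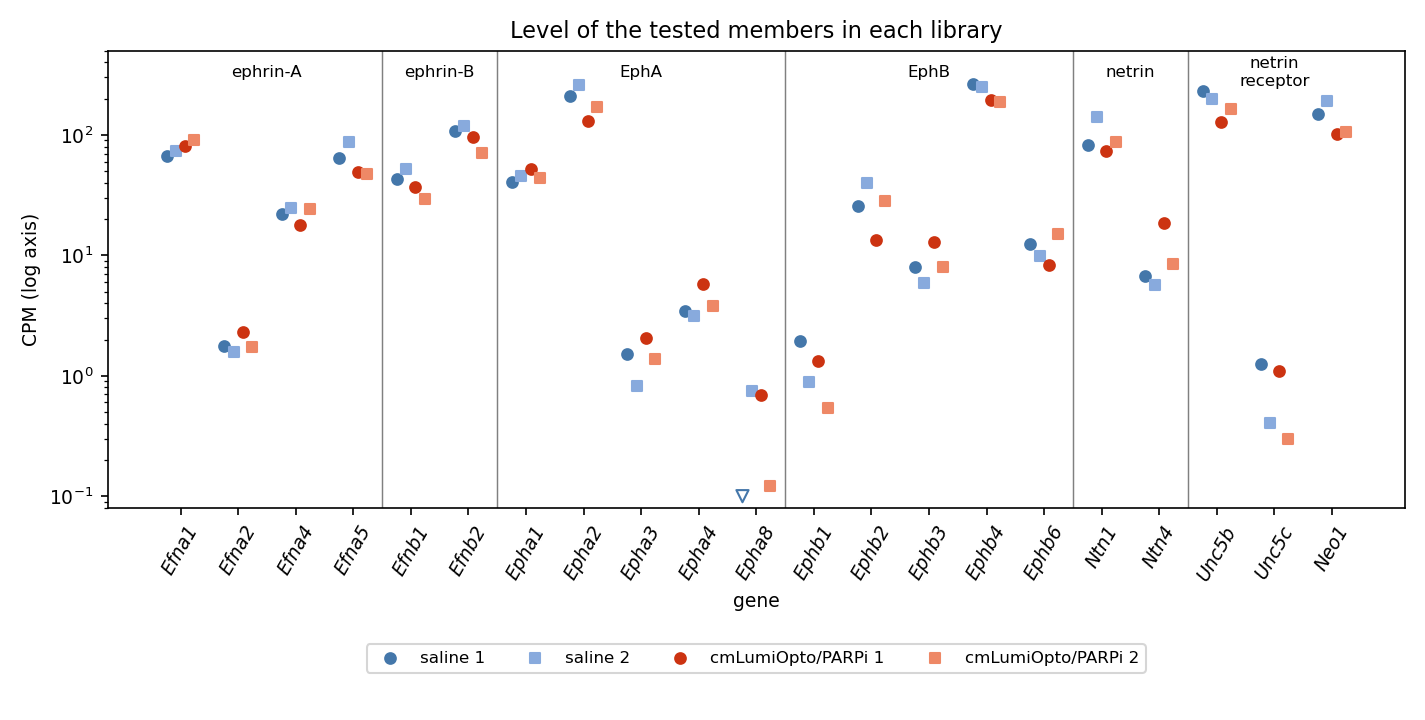
Level of each of the 21 tested genes in each library, in CPM on a log axis, grouped by role (circles, replicate 1; squares, replicate 2; blue, saline; red and orange, cmLumiOpto/PARPi). The open triangle marks Epha8 in saline replicate 1, which had 0 counts. Epha2, Ephb4, Unc5b and Neo1 are the highest receptors, and for each of them both treated points lie under both saline points.

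The promoters of these 4 receptors are shown because they gave most of the receptor RNA and were lower together. Each is the 250 bases before the RefSeq start (GRCm38.p6), read 5′ to 3′ on the gene's strand, and the capitals mark GC boxes, the letters GGGCGG on either strand. The windows are chr5:137349859-137350108 (+) for Ephb4, chr4:141300971-141301220 (+) for Epha2, chr10:60831582-60831831 (-) for Unc5b and chr9:59036442-59036691 (-) for Neo1.
Ephb4: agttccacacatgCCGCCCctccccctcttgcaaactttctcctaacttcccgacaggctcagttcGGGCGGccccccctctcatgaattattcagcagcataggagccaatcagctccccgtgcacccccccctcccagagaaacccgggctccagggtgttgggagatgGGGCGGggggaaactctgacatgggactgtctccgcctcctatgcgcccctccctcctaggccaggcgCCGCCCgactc
Epha2: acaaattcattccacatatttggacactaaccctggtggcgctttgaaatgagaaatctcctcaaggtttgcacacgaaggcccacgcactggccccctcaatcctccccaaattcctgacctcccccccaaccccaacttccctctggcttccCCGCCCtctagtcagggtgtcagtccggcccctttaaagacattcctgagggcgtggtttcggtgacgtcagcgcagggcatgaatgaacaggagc
Unc5b: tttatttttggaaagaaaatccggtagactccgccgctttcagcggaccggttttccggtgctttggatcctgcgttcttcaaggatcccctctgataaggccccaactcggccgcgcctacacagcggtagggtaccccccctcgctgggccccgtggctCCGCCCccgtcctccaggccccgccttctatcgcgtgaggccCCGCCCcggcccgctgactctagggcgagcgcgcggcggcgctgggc
Neo1: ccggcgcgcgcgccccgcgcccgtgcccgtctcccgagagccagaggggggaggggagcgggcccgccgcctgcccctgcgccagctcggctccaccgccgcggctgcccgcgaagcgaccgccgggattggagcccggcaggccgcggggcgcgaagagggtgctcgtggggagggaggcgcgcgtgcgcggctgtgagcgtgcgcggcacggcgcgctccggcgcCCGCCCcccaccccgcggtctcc
They held 4, 1, 2 and 1 GC boxes, with overlapping matches counted, and 12, 9, 27 and 45 CG dinucleotides. No window was given for Ntn1, Efnb3 and Unc5d, and Dcc was left out, so the shares that follow do not cover them. The other 26 of the 30 genes gave 29 RefSeq windows in all. A GC box stood in 79.3% of these windows, against 32.7% of 32851 windows of the same length over all genes and 55.6% of those of tested genes. The TATA box letters TATAAA, on either strand, stood in 1 of the 29 windows, that of Efnb2 (3.4%), against 12.4% of all windows and 6.8% of those of tested genes. The AP-1 letters TGANTCA stood in 0 of the 29, against 6.7% and 5.0%. The hypoxia response core ACGTG stood in 13.8%, against 16.6% and 21.0%, and in none of the 4 windows printed. These are letter matches in 1 short window and no evidence of binding.

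Among the A-type ephrins, Efna1 was higher and Efna5 lower after treatment. Efna1 (ENSMUSG00000027954, chromosome 3, 89271733 to 89281142, GRCm38) encodes the main ligand of EphA2 in epithelium and is induced by inflammatory cytokines. Its level was 66.5 and 73.1 CPM with saline against 80.8 and 90.6 CPM with cmLumiOpto/PARPi. Each treated library was above each saline library, and the log2 fold change was 0.30 (standard error 0.14, adjusted p = 0.279). Efna1 is a short gene, 1830 bases in the table. A correction for gene length and mean level together took this value to 0.08. It is called the length correction here and is described with the length trend.

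Efna5 (ENSMUSG00000048915, chromosome 17, 62604184 to 62881317) encodes an A-type ephrin known best from retinal axon mapping, which also binds EphB2. It stood at 64.7 and 87.0 CPM with saline and at 48.9 and 47.4 CPM after treatment. The treated pair was close together and below both saline libraries, with log2 fold change -0.66 (standard error 0.18, adjusted p = 0.154), -0.62 with the length correction and -0.43 without saline replicate 2. Efna4, which lies with Efna1 and Efna3 in a stretch of 66.3 kb on chromosome 3, had 22.0 and 24.7 CPM against 17.7 and 24.4 CPM, so its groups overlapped while those of its neighbour Efna1 did not. An antisense transcript shares 10.5% of the Efna4 exon bases, and without known strand its reads cannot be told apart. Efna2 was near 2 CPM in every library (1.76 and 1.57 against 2.30 and 1.74). Efna3 had 3 and 2 counts against 7 and 7 and was too low to test.

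The 2 tested B-type ephrins were lower in the treated libraries. Efnb1 (ENSMUSG00000031217, chromosome X, 99136130 to 99148991), whose product guides craniofacial and skeletal boundaries, had 43.4 and 52.3 CPM with saline and 36.7 and 29.4 CPM after treatment. Its log2 fold change was -0.53 (standard error 0.19, adjusted p = 0.199), and -0.59 with the length correction. Efnb2 (ENSMUSG00000001300, chromosome 8, 8617434 to 8661242), the ephrin that marks arterial endothelium, had 108 and 118 CPM against 96.8 and 71.0 CPM. The groups did not overlap, but treated replicate 1 lay nearer to saline replicate 1 than to its own group mate. The log2 fold change was -0.43 (standard error 0.18, adjusted p = 0.249), -0.18 with the length correction, -0.67 without treated replicate 1 and -0.23 without treated replicate 2. Efnb3, chiefly a neuronal ephrin, had 4 and 7 counts against 15 and 7 and was not tested. The 10 endothelial markers summed to 592 and 475 CPM with saline and 907 and 499 CPM after treatment, and these sums overlapped. Of the 10, 9 had a positive log2 fold change, but only 3 were higher in both treated libraries and 7 overlapped. Over all tested genes 27.4% were higher in both treated libraries. Efnb2 was lower in both. The part of vessel content in the Efnb2 value was not tested.

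Among the EphA receptors, Epha2 was the leading one and was lower after treatment. Epha2 (ENSMUSG00000006445, chromosome 4, 141301240 to 141329384) encodes a receptor of epithelia and carcinomas that ephrin-A1 activates and turns over. It had 211 and 260.3 CPM with saline and 131 and 171 CPM with cmLumiOpto/PARPi. The highest treated library lay below the lowest saline library, with log2 fold change -0.64 (standard error 0.19, adjusted p = 0.166), and -0.47 with the length correction. Epha1, the founding member of the family and also epithelial, had 40.7 and 45.8 CPM against 52.3 and 43.9 CPM, with overlapping groups and a log2 fold change of 0.15 (adjusted p = 0.615). It shares 6.01% of its exon bases with Zyx on the opposite strand. The sums of the mammary tumour epithelium list given above overlapped between the groups, as Epha1 did, while Epha2 did not. That list cannot separate tumour from normal lung epithelium. Of its 10 tested markers, 2 were higher in both treated libraries (Cldn3 and Cldn7), 1 was lower (Krt14) and 7 overlapped. Over all tested genes, 27.4% were higher and 27.8% lower without overlap. The alveolar type 1 and type 2 sums were also higher in both treated libraries. The part of tumour content in the Epha2 value was not tested.

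Other EphA receptors were scarce. Epha4, the receptor that binds ephrins of both classes, had 3.45 and 3.13 CPM against 5.81 and 3.79 CPM, with log2 fold change 0.54 (standard error 0.38, adjusted p = 0.444), and 0.20 without treated replicate 1. Epha3 had 1.51 and 0.818 CPM against 2.07 and 1.38 CPM, and its groups overlapped. Epha8 rested on 0 and 11 counts against 12 and 2, so the libraries of each group differed more than the groups. Epha7 had 4 and 2 counts against 13 and 10, and Epha10, whose product has no active kinase, had 1 and 4 against 0 and 0. Epha5 had 1 count in all and Epha6 had 0, receptors best known from brain. The neuronal and Schwann cell marker list was also near the floor, with sums of 1.13 to 2.01 CPM over 6 genes and 0 counts of Elavl4.

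Ephb4 had the highest mean level per length of the Eph receptors (48.3 CPM per kb over the 4 libraries, against 41.4 for Epha2), and it was lower after treatment. Ephb4 (ENSMUSG00000029710, chromosome 5, 137350109 to 137378669) encodes the receptor of ephrin-B2 that marks veins and is also made by mammary epithelium. Its values were 264 and 249 CPM with saline and 195 and 189 CPM after treatment, so the replicates of each group were close and the groups well apart. The log2 fold change was -0.42 (standard error 0.13, adjusted p = 0.177), and -0.23 with the length correction. Ephb2, a receptor of intestinal crypt sorting that also acts in other epithelia, had 25.7 and 39.5 CPM against 13.3 and 28.3 CPM. Replicate 2 exceeded replicate 1 in both groups, and the groups overlapped (log2 fold change -0.65, standard error 0.40, adjusted p = 0.388). The value was -0.31 without saline replicate 2, -0.20 without treated replicate 1 and -1.30 without treated replicate 2.

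Ephb3, the partner of Ephb2 in crypt sorting, went the other way, with 7.96 and 5.86 CPM against 13.0 and 7.94 CPM. Saline replicate 1 and treated replicate 2 were level, so the groups overlapped (log2 fold change 0.59, standard error 0.35, adjusted p = 0.367). It was 0.39 without saline replicate 2, 0.20 without treated replicate 1 and 0.90 without treated replicate 2. Ephb6, which has lost kinase activity, had 12.5 and 9.95 CPM against 8.29 and 15.2 CPM, its lowest and highest values both in the treated group. Ephb1 had 1.94 and 0.886 CPM against 1.32 and 0.542 CPM and also overlapped.

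Levels of different genes were compared as CPM per kb of the gene length in the table. Ephb4 and Epha2 together made up most Eph receptor RNA in each library. Ephb4 gave 47.4% and 41.8% of it with saline and 46.7% and 42.1% after treatment, and Epha2 gave 37.7% and 43.3% against 31.2% and 37.7%. The third receptor was Epha1, with 8.64% and 9.07% against 14.8% and 11.6%. The summed Eph receptor level was 120.0 and 128 CPM per kb with saline and 90.0 and 96.7 CPM per kb with cmLumiOpto/PARPi. The groups did not overlap in this sum. For the ephrins the sums were 95.4 and 110.3 against 93.6 and 96.5 CPM per kb, which overlapped. Within the ephrins, Efna1 gave 38.1% and 36.2% with saline and 47.1% and 51.3% after treatment, while Efna5 gave 16.8% and 19.5% against 12.9% and 12.2%. The stacked plot of both classes shows the same libraries.

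**Figure D2:**
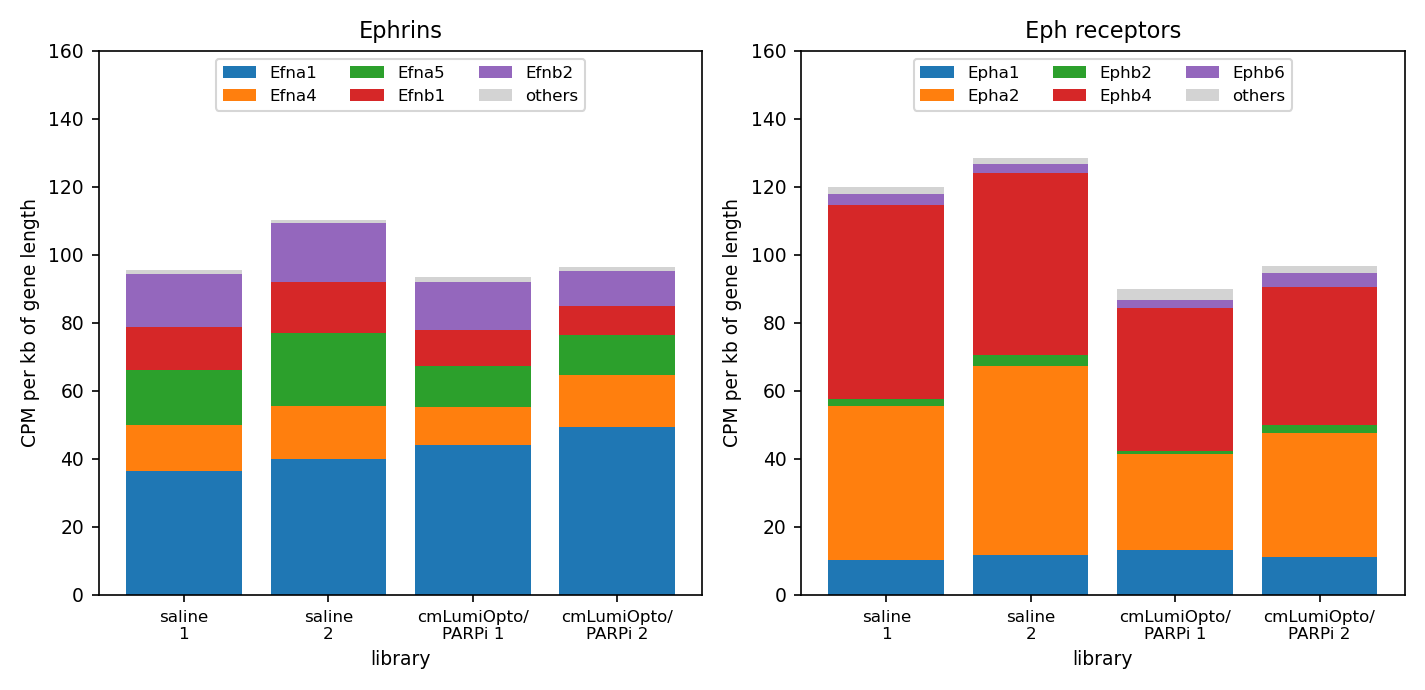
Summed level of the ephrin genes (left) and Eph receptor genes (right) in each library, in CPM per kb of gene length, stacked by gene. The receptor bars of the treated libraries (90.0 and 96.7) are lower than those of the saline libraries (120.0 and 128), and the Efna1 part of the ephrin bars is larger.

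Efna1 and Epha2, ligand and receptor, differed in opposite directions. The ratio of Efna1 to Epha2, each in CPM per kb, was 0.803 and 0.717 with saline against 1.57 and 1.36 after treatment. The ligand RNA was thus below the receptor RNA with saline and above it after treatment, in each library. Their log2 fold changes differed by 0.94, and by 0.54 with the length correction. With 2 libraries against 2, an exact two-sided permutation test cannot give a p below 0.333, and no other test was run on this ratio. Efnb2 to Ephb4, the arterial and venous pair, had a ratio of 0.276 and 0.322 with saline and of 0.336 and 0.254 after treatment, which overlapped. The ratio of all ephrins to all Eph receptors was 0.796 and 0.859 against 1.04 and 0.998. No correction for the trend of change with gene length, described below, was made in these ratios or in the class sums.

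The 2 netrins differed. Ntn1 (ENSMUSG00000020902, chromosome 11, 68209364 to 68400823) encodes the canonical netrin. It had 83.0 and 141 CPM with saline and 74.0 and 86.8 CPM after treatment. The saline libraries spread widely and overlapped with the treated libraries (log2 fold change -0.48, standard error 0.26, adjusted p = 0.342). It was -0.82 without saline replicate 1 and -0.046 without saline replicate 2. Ntn4 (ENSMUSG00000020019, chromosome 10, 93640681 to 93747207) encodes a netrin of vascular and epithelial basement membranes that binds laminin. It had 6.77 and 5.66 CPM with saline and 18.4 and 8.42 CPM with cmLumiOpto/PARPi. Both treated libraries were above both saline libraries, and treated replicate 1 was far above the rest. The log2 fold change was 1.11 (standard error 0.42, adjusted p = 0.215), the largest positive value of the 21, and 0.92 with the length correction. Without treated replicate 1 it was 0.44 (adjusted p = 0.683).

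Treated replicate 1 was also the library with the highest sums of alveolar type 1 (878 CPM), alveolar type 2 (8072 CPM) and endothelial (907 CPM) markers. Of the 21 genes, Ntn4, Ephb3, Epha1, Epha3, Epha4 and Efna2 had their highest CPM in that library. The share of all tested genes with their highest CPM there was not counted, so the list cannot show a link with lung content. The part of lung tissue content in these values was not tested.

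Among the netrin receptors, Neo1 and Unc5b carried the class and both were lower after treatment. Neo1 (ENSMUSG00000032340, chromosome 9, 58874687 to 59036441) encodes neogenin, a receptor for netrins and for repulsive guidance molecules. It had 149 and 191 CPM with saline and 103 and 105 CPM with cmLumiOpto/PARPi. The treated libraries nearly coincided and lay below both saline libraries. The log2 fold change of -0.71 (standard error 0.16) had the smallest p of the 21 genes (unadjusted p = 0.00523, adjusted p = 0.138 from edgeR). With the length correction it was -0.37 (adjusted p = 0.374), and Neo1 is among the long genes, at 8716 bases. Unc5b (ENSMUSG00000020099, chromosome 10, 60762593 to 60831581), the UNC5 receptor of endothelial cells, had 233 and 200.2 CPM against 128 and 163 CPM. The groups did not overlap, with log2 fold change -0.57 (standard error 0.17, adjusted p = 0.171), and -0.30 with the length correction.

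Per length, Unc5b gave 68.3% and 59.3% of netrin receptor RNA with saline and 63.3% and 68.3% after treatment, and Neo1 nearly all of the rest. The summed level of the class was 54.5 and 54.0 CPM per kb against 32.3 and 38.1 CPM per kb. The groups did not overlap in this sum, and Unc5b stood above Neo1 in each library. The ratio of Ntn1 to Unc5b, in CPM per kb, was 0.355 and 0.704 against 0.576 and 0.531, and that of Ntn1 to Neo1 was 0.774 and 1.03 against 1.00 and 1.15. Both ratios overlapped between groups. Dcc, the attractive netrin receptor of neurons, had 0 counts in each library. Unc5c had 20 and 6 counts against 19 and 5, following the replicate number more than the group. Unc5d had 9 and 2 counts against 1 and 0, and Unc5a had 4 and 0 against 1 and 2.

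Gene length moved with these differences across the whole table. Over all tested genes the log2 fold change was lower for longer genes (Spearman's rho = -0.373 across genes, which are not independent replicates). With the genes cut by length into 5 nearly equal classes, the median was 0.31 in the shortest class and -0.27 in the longest. Neo1 was in the longest class and Efna1 in the shortest, while Epha2 and Ephb4 were in the middle class, whose median was 0.02. Epha3 and Epha4 were in the longest class and had positive values, 0.57 and 0.54. The trend fitted to length and mean level was -0.35 for Neo1, -0.28 for Unc5b, -0.18 for Epha2 and Ephb4, and 0.22 for Efna1, but -0.04 for Efna5, 0.05 for Efnb1 and 0.19 for Ntn4. For the weakly expressed Epha8, also in the middle class, it was 0.44, so the correction is not one of length alone. With the trend taken out in the same edgeR fit, the median log2 fold change of the 21 genes was -0.25, against -0.02 over all genes. At an unadjusted p under 0.05 there were then 2 of the 21, Efna5 and Efnb1, both lower. Of all 15167 tested genes 14.2% had such a p in either direction, 1005 of them higher and 1153 lower. The cause of the trend was not tested.

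**Figure D3:**
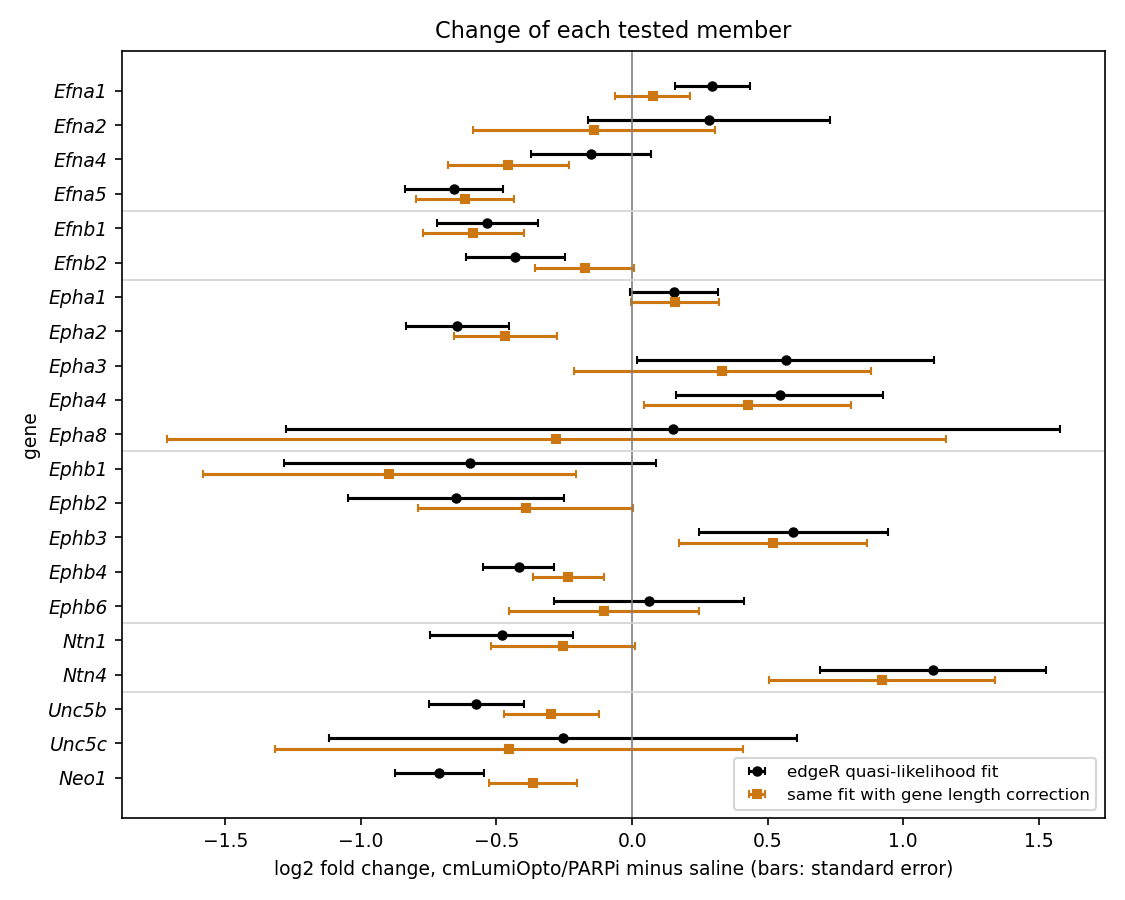
Log2 fold change (cmLumiOpto/PARPi minus saline) of each tested gene with its standard error, in the edgeR fit (black) and in the same fit with the gene length correction (orange). Efna5 and Efnb1 hardly move, Neo1 goes from -0.71 to -0.37, and Efna1 from 0.30 to 0.08.

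**Figure D4:**
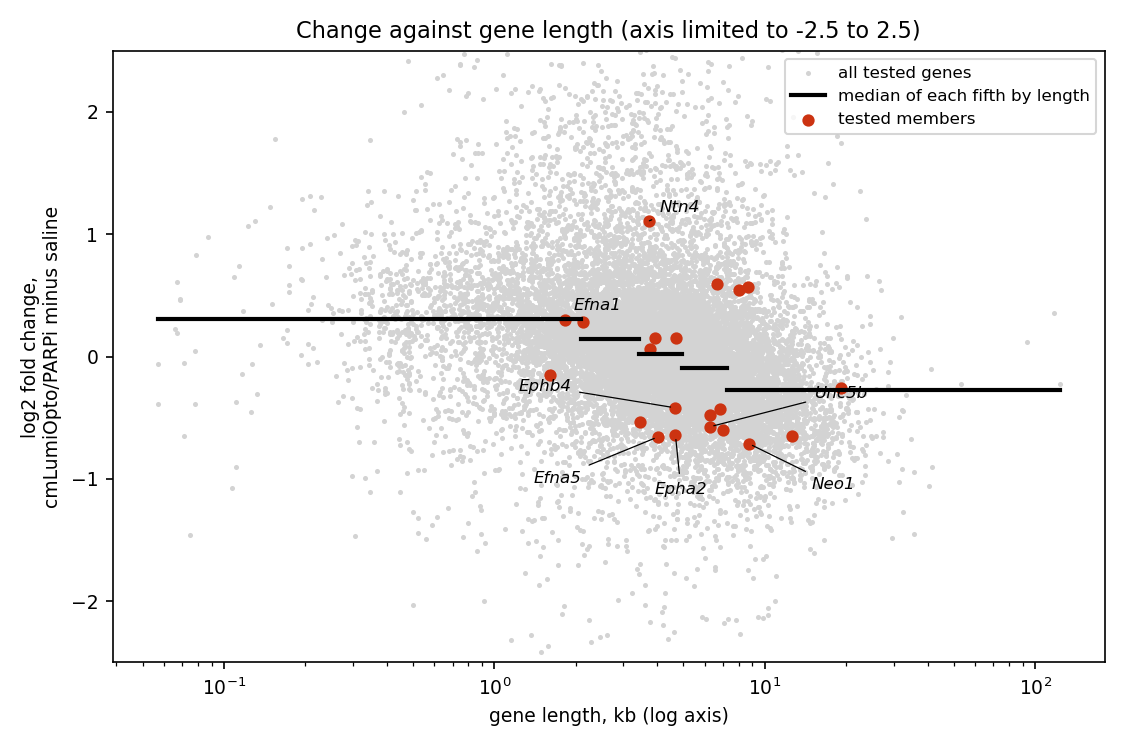
Log2 fold change against gene length in kb (log axis) for all tested genes (grey) and the tested members (red). Black lines span 5 nearly equal classes of genes by length, each at its median, which goes from 0.31 to -0.27, and Ephb4, Epha2, Efna5, Unc5b and Neo1 lie below the line of their class.

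Genes that act with these ligands and receptors were taken from 5 lists, and 0 genes of any list had an adjusted p under 0.05 in edgeR. Of 43 tested effectors of Eph forward signaling, 16 were lower and 1 was higher at an unadjusted p under 0.05 (background 12.0% and 9.21%). Their median log2 fold change was -0.24, and -0.04 with the length correction, close to that of all genes. With the correction 5 were lower and 3 higher at that threshold, where 14.2% of all tested genes passed in either direction. The kinase Abl2 had 115 and 167 CPM against 52.6 and 74.6 CPM, with log2 fold change -1.15 (adjusted p = 0.138), and -0.77 with the length correction. Abl1 and the ubiquitin ligase Cbl, which marks activated receptors for degradation, had log2 fold changes of -0.73 and -0.59, and of -0.30 and -0.22 with the correction. The adaptor Nck1 was the exception, with 55.4 and 39.3 CPM against 80.1 and 62.8 CPM and log2 fold change 0.59 (adjusted p = 0.212), and 0.69 with the correction.

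Of 16 tested partners of ephrin reverse signaling, 3 were lower and 1 was higher at an unadjusted p under 0.05 (background 12.0% and 9.21%). With the length correction 0 were lower and 1 was higher (background 14.2% in either direction). The median log2 fold change was -0.05, and 0.08 with the length correction. Among those under 0.05 without the correction, Pard3, a polarity scaffold, had the largest difference. It had 104 and 151 CPM against 63.6 and 71.8 CPM (log2 fold change -0.91, adjusted p = 0.138), and -0.46 with the correction. The signal transducer Stat3 and the tight junction scaffold Tjp1 had log2 fold changes of -0.51 and -0.45, and of -0.088 and -0.11 with the correction. The small PDZ protein gene Pdzd11 had one of 0.60, and 0.36 with the correction.

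The list of proteases that can cut ephrins and Eph receptors had 16 tested genes, among them subunits of gamma-secretase that are not themselves proteases. Of the 16, 5 were lower and 2 higher at an unadjusted p under 0.05 (background 12.0% and 9.21%). With the length correction 2 were lower and 0 higher (background 14.2% in either direction). The median log2 fold change was -0.27, and -0.13 with the length correction. Mmp2 had 180.5 and 118 CPM with saline and 35.3 and 54.3 CPM after treatment, with log2 fold change -1.74 (standard error 0.29, adjusted p = 0.138), and -1.73 with the length correction. Adam12 had 26.3 and 34.5 CPM against 12.2 and 10.5 CPM, with log2 fold change -1.42 (adjusted p = 0.138), and -1.24 with the correction. Mmp14, a membrane protease that cuts EphA2, had 622 and 621 CPM against 349 and 446 CPM (log2 fold change -0.64, and -0.33 with the correction). Among the subunits of gamma-secretase, Psenen and Aph1c had log2 fold changes of 0.63 and 1.12, and of 0.32 and 0.94 with the correction. Fibroblasts are a known source of Mmp2 and Adam12. In the fibroblast list 7 of 8 markers were lower in both treated libraries and 1 was higher, where 27.8% and 27.4% of all tested genes were. None of the 8 had 0 counts in all libraries. The part of fibroblast content in the protease values was not tested.

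Of 18 tested netrin relatives and co-receptors, 5 were lower and 1 was higher at an unadjusted p under 0.05 (background 12.0% and 9.21%). With the length correction 0 were lower and 0 higher (background 14.2% in either direction). Adgrl2, Itga6 and Itga3, of which the integrins bind laminins, had log2 fold changes of -0.75, -0.63 and -0.49, and of -0.22, -0.24 and -0.18 with the length correction. Adora2b, an adenosine receptor, had 3.64 and 3.20 CPM against 7.71 and 6.26 CPM (log2 fold change 1.03, adjusted p = 0.177), and 0.66 with the correction. The median of this list was -0.42, and -0.21 with the length correction. Of 27 tested effectors of netrin receptors, 8 were lower and 0 were higher at that threshold, against the same background. With the length correction 2 were lower and 0 higher. Their median was -0.28, and -0.16 with the length correction. Trio had 77.1 and 90.8 CPM against 48.6 and 47.3 CPM (log2 fold change -0.81, adjusted p = 0.138), and -0.30 with the length correction. Dock1 and Plcg1 had log2 fold changes of -0.66 and -0.53, and of -0.38 and -0.25 with the correction.

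**Figure D5:**
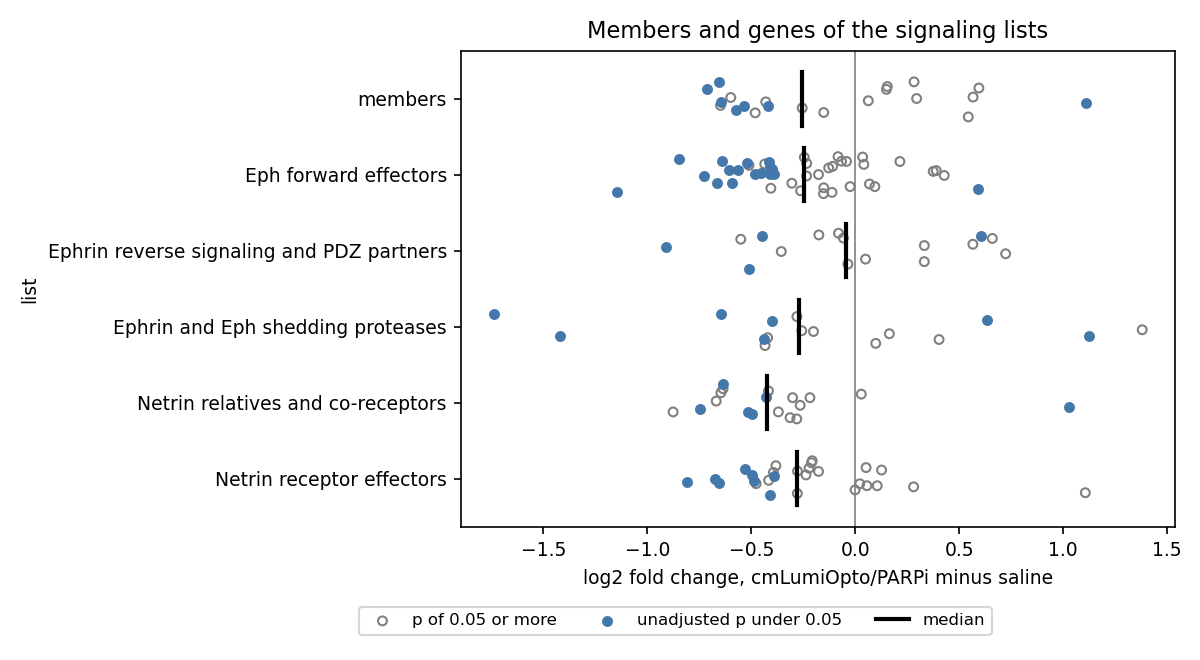
Log2 fold change (cmLumiOpto/PARPi minus saline) of the tested members and of the genes of the 5 signaling lists. Each point is a gene, filled where the unadjusted p was under 0.05, black bars are medians, and the medians lie between -0.42 and -0.05.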

How the data were processed

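RNA sequencing libraries of lung tissue with 4T1 metastasis were compared between saline (2) and cmLumiOpto/PARPi (2). The labels describe tumour cells taken from lungs. The paper's terms are used here. The authors mapped reads with HISAT2 and deposited raw read counts per gene; the counting tool and strand setting are not given in the sources used here. The deposited table also gives a gene length in bases, used for levels per kb. The paper names GRCm38 and the labels mm39. Only 2.83% of 52073 genes matched by identifier had the same start and end in GENCODE M21, so coordinates are those of M21 (GRCm38).

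Differential expression was tested across all genes with edgeR 4.0.16. Low genes were removed by filterByExpr (min.count 10), leaving 15167, libraries were scaled by TMM, and the quasi-likelihood F test (glmQLFit, legacy setting, then glmQLFTest) was adjusted by Benjamini-Hochberg at 0.05. The standard error is the size of the log2 fold change divided by the square root of F. The length correction took a loess fit (span 0.5) of log2 fold change on log2 gene length and mean log2 CPM out through the offsets. Other alternatives were DESeq2 1.42.0, RLE scaling, no filter, the non-legacy fit, the replicate block, and each library left out. The scripts were tested on simulated counts. Within groups, chi-square divided by its degrees of freedom was 25.2 (saline) and 45.4 (treated), so replicates differed by more than sampling noise. The members, the signaling and marker lists and the ligand and receptor pairs were chosen with earlier results of these data known. All members are accounted for; of each signaling list, up to 3 genes in each direction with the smallest unadjusted p under 0.05 are named, with other genes named only as markers. Promoter windows are from RefSeq (GRCm38.p6).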

Additional observations from a re-analysis of the deposited data

How the results depend on the processing

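The number of the 30 genes called went from 0 in edgeR to 1 with DESeq2 (Neo1), to 5 without the filter on low counts (Efna5, Epha2, Ntn4, Unc5b and Neo1) and to 4 with the replicate block (Efna5, Epha2, Ephb2 and Neo1), and stayed at 0 with RLE scaling, the non-legacy fit, the length correction with or without the block, and each library left out. Over all genes the counts called were 1011, 2000 and 1822 in the first 3 of these, 515 with the block and the length correction together, and 0 to 2 with 1 library left out. Same-numbered libraries are different mice, but their deviations correlated across genes (Spearman's rho = 0.305), a hint from the data and not the design. In the order DESeq2, no filter, replicate block, the counts called were 5, 9 and 9 for Eph forward effectors. They were 1, 2 and 2 for reverse signaling partners and 4, 4 and 4 for the protease list. For netrin relatives they were 3, 2 and 3, and for netrin receptor effectors 2, 5 and 5. The block with the length correction called 2 Eph forward effectors and 2 genes of the protease list. The cause of these shifts was not tested.

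The sign changed in 6 weakly expressed or near-zero results. With the length correction, and with the block added, the log2 fold change was -0.14 and -0.15 for Efna2, -0.28 and -0.14 for Epha8, and -0.10 and -0.15 for Ephb6. With 1 library left out it ranged from -0.40 to 0.061 for Efna4, from -1.55 to 5.79 for Epha8, from -1.38 to 0.077 for Ephb1, from -0.44 to 0.43 for Ephb6, and from -1.45 to 0.77 for Unc5c. The lone library of an arm was then assumed to vary like the other group. The sign of the other 15 tested genes was the same under every alternative. With 1 library left out, 2 to 5 of the 21 genes were lower at an unadjusted p under 0.05 and 0 or 1 was higher, where 10.9% to 21.3% of all tested genes had such a p in either direction. Levels under 0.173 to 0.204 CPM could not be told from 0 at this depth.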
